A study of Mus musculus with 4 samples.

Results

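The 9 genes described here encode receptors and ligands of the 2 signalling systems that govern growth and quiescence of blood vessels, the vascular endothelial growth factor (VEGF) system (Flt1, Kdr, Flt4, Nrp1, Vegfa and Vegfc) and the angiopoietin system (Tek, Tie1 and Angpt2). They were taken by gene symbol from the 55487 genes in the deposited count tables, whatever their values, and all 9 were measured in every library. The tables hold single-cell RNA sequencing of cells from mouse brain that had been enriched for endothelial cells. The study made 4 libraries, of which 2 came from young and 2 from old mice, and at each age 1 carries the genotype label WT Cre and 1 the label EC-K4KO. All mice were on the C57BL/6J background and carried Cdh5-CreERT2, a Cre recombinase that is driven by the VE-cadherin promoter of endothelial cells and activated by tamoxifen. EC-K4KO mice also carried floxed Klf4, so that the transcription factor Klf4 should be lost from endothelial cells, and WT Cre littermates carried the Cre alone. Both sexes were used in the study. How many mice went into a library is not given in the sources used here, so each group is 1 library. The p-values for vessel segments measure the spread between libraries. Those for age and genotype label have no second library of any group behind them. They rest on the spread that both terms leave over, which edgeR shares across genes. Values of the 4 libraries are given throughout in the order young WT Cre, young EC-K4KO, old WT Cre, old EC-K4KO.

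VEGF ligands signal through receptor tyrosine kinases on endothelial cells. Vegfa binds Kdr (VEGFR2), the main signalling receptor for endothelial proliferation and permeability, and Flt1 (VEGFR1), which binds Vegfa tightly but signals weakly and is also made in a soluble form that acts as a decoy. Vegfc acts through Flt4 (VEGFR3), best known from lymphatic vessels, and after processing also through Kdr. Nrp1 (neuropilin-1) is a co-receptor that strengthens Vegfa signalling through Kdr and also binds class 3 semaphorins. Tek (Tie2) is the angiopoietin receptor, and its activation by Angpt1, made largely by mural cells, keeps endothelium quiescent. Tie1 is an orphan partner that modulates Tek, and Angpt2 is a context-dependent antagonist of Tek released by endothelial cells. In the adult brain Vegfa is known to be made mainly by astrocytes and other parenchymal cells.

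In the GRCm38 build the genes lie at chr5:147561604-147726011 (Flt1, minus strand), chr5:75932827-75978458 (Kdr, minus), chr11:49609263-49652739 (Flt4, plus), chr8:128358604-128503363 (Nrp1, plus), chr17:46016993-46032369 (Vegfa, minus), chr8:54077606-54187096 (Vegfc, plus), chr4:94739289-94874976 (Tek, plus), chr4:118471191-118490061 (Tie1, minus) and chr8:18690263-18741562 (Angpt2, minus). All are protein coding. Angpt2 lies within Mcph1, a gene on the opposite strand, and whether strand was used in counting is not given in the sources used here. Mcph1 stood at 4.54, 5.89, 5.05 and 4.59 CPM (counts scaled to a common library total) in endothelial cells, below Angpt2 in each library. Counts were summed over the whole gene, so membrane-bound and soluble Flt1, or the splice forms of Vegfa, cannot be told apart.

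The files held 26422 barcodes, of which 21714 passed the cell filter, and 10369 of these were endothelial by their markers (2801, 3472, 2187 and 1909). All 8 endothelial markers were found in the endothelial cells of each library. Their median depth differed, at 6430, 10170, 4799 and 3832 unique molecular identifiers (UMIs, counts of captured RNA molecules) per cell. Pairs of libraries shared 6 to 11 barcodes among kept cells. Endothelial cells were further divided by segment markers into 1252 arterial, 5942 capillary and 1324 venous cells, while 1851 lay between these rules. None of the 9 genes was a marker. Barcodes led by globin genes also held endothelial markers at 44.4 to 79.6% of the endothelial level. This class was left out of the levels, orders and tests given here, but its sums remained in the correlations below. Levels (CPM) are UMIs of a gene scaled to the total UMIs of the same cells, and their intervals cover counting error only.

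Klf4 was examined first, since it checks the genotype labels. It stood at 1692, 3266, 2090.3 and 3308 CPM in endothelial cells, so both libraries labelled EC-K4KO held more Klf4 RNA than both labelled WT Cre. The change with the label was 0.83 ± 0.108 on the log2 scale (SE, 4 libraries, adjusted p = 0.0286), a call from the model with age, since with the label alone in the model edgeR called 0 genes (338 at an unadjusted p under 0.05, and DESeq2 with age in the model called 127). Higher values in the libraries labelled EC-K4KO were also present in the arterial, capillary and venous cells of both ages. Which exons the floxed allele loses is not given in the sources used here, and the counts cover the whole gene, so RNA of a recombined allele may be included. Since the targeted gene goes against the labels, every comparison of genotype below is between libraries by their label.

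The 3 VEGF receptor tyrosine kinases and both Tie receptors were endothelial genes in every library. Orders of classes are given among the 6 classes with at least 50 cells in every library unless another class is named with its cells. Flt1 stood at 4719.6, 4606, 4648 and 4386 CPM in endothelial cells. It was detected in 96.7 to 98.1% of endothelial cells after each cell was thinned to 1000 UMIs, and in 99.8 to 100% before. The second highest class, pericytes, held 108 to 211 CPM. Kdr stood at 582, 503, 448 and 377 CPM in endothelial cells and at most at 29.9 CPM in oligodendrocytes, the next class. The 2 young libraries were both above the 2 old ones. Flt4, in contrast, showed overlapping values between the ages, at 63.2, 68.7, 58.4 and 64.0 CPM, and no other class with at least 50 cells in every library exceeded 4.47 CPM.

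Tek stood at 349.6, 361, 272 and 275 CPM in endothelial cells. In smooth muscle cells, the next class by its median, it was at 4.81 to 12.7 CPM. Tie1 stood at 230.3, 244, 159 and 156 CPM, with at most 10.3 CPM in any other class used. For both Tie receptors the young and the old libraries did not overlap. RNA of endothelial markers was present in every other class used. The median over the 8 markers was 1.54 to 3.14% of the endothelial level in smooth muscle cells and 0.305 to 1.43% in microglia. The highest single marker stood at 18.9 to 28.4% in smooth muscle cells and 3.94 to 7.46% in microglia. Flt1 was at 1.34 to 3.06% of its endothelial level in smooth muscle cells and at 0.495 to 1.12% in microglia. These values lie within or near the ranges of the marker medians and are read as background. Kdr in oligodendrocytes stood at 3.13, 3.55, 4.90 and 7.93% of its endothelial level. The highest of the 8 markers there stood at 1.86, 4.27, 2.54 and 2.60%. Whether the Kdr RNA of oligodendrocytes is background was not tested.

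Nrp1 was the exception among the receptors. It stood at 223, 191, 158 and 151 CPM in endothelial cells, its highest class in 4 of 4 libraries among those with at least 50 cells in every library. Pericytes held 71.9, 85.4, 63.9 and 46.7 CPM, which was 30.9 to 44.8% of the endothelial level. Microglia held 80.7, 71.4, 48.3 and 60.5 CPM, or 30.6 to 39.9%. Both shares lie far above the median of the endothelial markers in the same cells, which reached 2.31% in pericytes and 1.43% in microglia, although 1 of the 8 markers was at 56.4 to 64.8% in pericytes. The levels of pericytes and microglia did not keep one order, since pericytes were higher in 2 of 4 libraries. Border macrophages, measured over at least 50 cells in 2 libraries, reached 162% of the endothelial level in the young EC-K4KO library and 152% in the old WT Cre library.

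The ligands showed 3 different patterns. Vegfa was an astrocyte gene in these cells, with 471, 614, 537 and 596 CPM in astrocytes. Oligodendrocytes held 48.3, 60.3, 39.98 and 24.4 CPM, the second highest of the classes used in 3 of 4 libraries, below microglia in the old EC-K4KO library. Pericytes, smooth muscle cells and microglia lay between 5.66 and 30.2 CPM without a consistent order. Endothelial cells held 4.62, 5.37, 7.38 and 7.98 CPM, the lowest of these classes in 4 of 4 libraries. Of the classes with few cells, oligodendrocyte precursors held 368 CPM of Vegfa over 57 cells of the old WT Cre library (95% exact Poisson interval 299 to 447), or 137 CPM under the stricter class rule. Choroid plexus epithelium held 111 CPM over 184 cells of the old WT Cre library and 92.4 CPM over 61 cells of the old EC-K4KO library (59.9 and 25.7 CPM under the stricter cell filter), and fibroblasts held 158, 121, 89.5 and 177 CPM over 37, 40, 36 and 22 cells. Vegfc was endothelial, at 78.4, 59.8, 95.9 and 86.9 CPM, with at most 5.77 CPM in smooth muscle cells, the next class by its median, and 14.7 CPM from 4 UMIs in the 57 oligodendrocyte precursors of the old WT Cre library. Angpt2 was shared by the vessel wall. It stood at 45.9, 36.2, 26.0 and 40.3 CPM in smooth muscle cells, at 27.1, 59.7, 26.6 and 32.4 CPM in pericytes, and at 25.4, 15.0, 21.8 and 27.2 CPM in endothelial cells. The 3 ranges overlapped over the libraries, but within each of the 4 libraries endothelial cells held the lowest level of the 3. Pericytes, with few UMIs of this gene, stood at 107, 397, 122 and 119% of the endothelial level. Whether these differences exceed counting error was not tested. Capillary endothelial cells alone held 25.7 to 43.5 CPM, a range that overlaps those of both mural classes. Astrocytes, oligodendrocytes and microglia did not exceed 2.93 CPM. The 57 oligodendrocyte precursors of the old WT Cre library held 18.4 CPM from 5 UMIs, and the choroid plexus epithelium of the old libraries held 4.85 and 4.89 CPM.

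**Figure D1:**
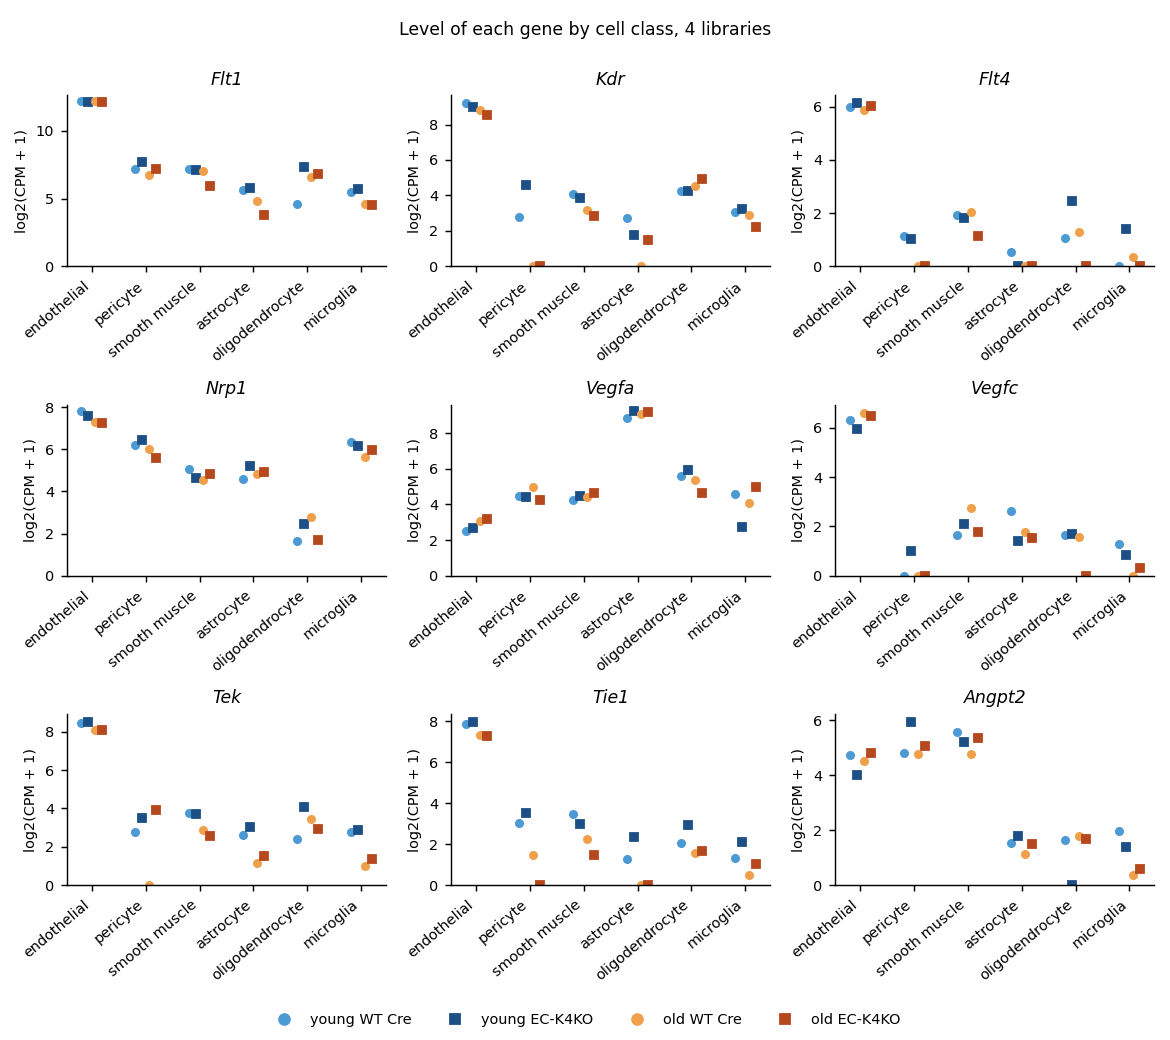
Level of each of the 9 genes, as log2(CPM + 1), in the cell classes with at least 50 cells in every library, 1 point per library. The receptors Flt1, Kdr, Flt4, Tek and Tie1 and the ligand Vegfc stand highest in endothelial cells, Vegfa stands highest in astrocytes (471 to 614 CPM), and the Angpt2 values of smooth muscle cells, pericytes and endothelial cells overlap.

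As a description of these patterns, each gene was correlated over 48 sums of cells by class or segment and library, among 9253 genes. The sums share libraries and differ in depth, and the values carry no test. They include the barcodes led by globin genes, which also hold endothelial RNA. Most receptors ran closest to genes of general endothelial expression, with Foxq1 nearest to Flt1 (Pearson r 0.99), Cldn5 to Kdr (0.97), Foxl2 to Flt4 (0.99), and Robo4 to both Tek (0.98) and Tie1 (0.99). Values were lower for Nrp1, Vegfa and Angpt2, with Il10rb nearest to Nrp1 (0.93), Gapdh to Vegfa (0.87) and Igfbp7 to Angpt2 (0.83).

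Most of the 9 genes differed between vessel segments. The question was where along the vessel tree each ligand and receptor RNA lies, and each segment was measured in 4 libraries. Sums of UMIs per library and segment were compared with edgeR's quasi-likelihood test, with the library as a block. Between arterial and capillary cells 7 of the 9 genes passed an adjusted p of 0.05, against 34.4% of the 12966 genes tested. Of these 3 were higher in arterial cells (all genes 18.9%) and 4 were lower (all genes 15.5%). Between venous and capillary cells 8 of 9 passed (all genes 27%), with 3 higher (13.8%) and 5 lower (13.1%). Between arterial and venous cells 7 of 9 passed (all genes 39.7%), with 5 higher in arterial cells (20.7%) and 2 lower (19%). Venous and arterial cells had more UMIs per cell than capillary cells in every library, and the part of depth in these differences was not tested.

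Vegfc was an arterial gene. It stood at 371, 317, 351 and 333 CPM in arterial cells, at 10.3, 14.0, 7.79 and 11 CPM in capillary cells and at 26.1, 18.1, 24.4 and 16.4 CPM in venous cells. The 3 segments did not overlap. The difference of arterial from capillary cells was 4.94 ± 0.13 (log2, SE, 4 libraries, adjusted p = 2.18e-12), and venous cells lay 0.89 ± 0.16 above capillary cells (adjusted p = 0.000726). After thinning to 1000 UMIs, a Vegfc UMI was found in 25.4, 27.4, 26.1 and 24.7% of arterial cells and in 0.738, 1.28, 0.794 and 0.687% of capillary cells, while 0 of 333, 583, 1267 and 709 thinned microglia held one, which allows a share of thinned cells with a UMI of up to 0.901, 0.515, 0.237 and 0.423%. Before thinning the shares were 77.9 to 86.9% of arterial cells, 2.82 to 8.19% of capillary cells and 0 to 0.901% of microglia.

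Vegfa was low throughout the endothelium but also highest in arterial cells. It stood there at 11.3, 16.5, 20.6 and 18.5 CPM, against 3.03, 2.62, 3.34 and 6.60 CPM in capillary cells and 3.57, 3.06, 1.27 and 3.69 CPM in venous cells, from 42 to 95 UMIs per library in arterial and 5 to 35 in venous cells. Arterial cells were above both other segments in every library. The difference from capillary cells was 2.26 ± 0.24 (log2, adjusted p = 3.09e-06), and venous cells did not differ from capillary cells beyond their spread (-0.19 ± 0.30, adjusted p = 0.706). Smooth muscle cells, which surround arteries, held Vegfa at 18.1 to 24.1 CPM. The 6 smooth muscle markers were found in arterial cells at a median of 0.165 to 0.740% of their level in smooth muscle cells, 5 or 6 of the 6 being present with a summed level of 62.2 to 338 CPM, while Vegfa stood at 62.6 to 99.5% of its smooth muscle level. The 6 astrocyte markers stood in arterial cells at a median of 0.0584 to 0.263% of their astrocyte level, with a summed 120 to 192 CPM, and Vegfa at 2.40 to 3.84%. The highest single astrocyte marker stood at 8.19, 5.64, 14.4 and 10.7%, above the share of Vegfa in every library, and the part of astrocyte RNA was not tested.

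Kdr showed the opposite direction. It stood at 286, 221, 227 and 160.1 CPM in arterial cells, 667, 576, 596 and 507 CPM in capillary cells and 632, 497, 459 and 349 CPM in venous cells, and each library kept the order capillary, venous, arterial. The difference of arterial from capillary cells was -1.38 ± 0.066 (log2, adjusted p = 7.76e-10), and that of venous from capillary cells -0.28 ± 0.063 (adjusted p = 0.00381). Arterial cells thus held the highest Vegfc and Vegfa levels and the lowest Kdr level of the 3 segments.

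Flt1 varied little along the vessels. Arterial cells held 4382 to 4904 CPM and capillary cells 4922 to 4989.6 CPM, a difference of -0.06 ± 0.042 (log2, adjusted p = 0.346), while venous cells held 3556 to 4072 CPM and were lower than capillary cells by -0.35 ± 0.042 (adjusted p = 2.04e-05). Flt4 was highest in capillary cells, at 64.5 to 75.9 CPM, and lower in both arterial (-0.51 ± 0.086, adjusted p = 0.000283) and venous cells (-0.27 ± 0.079, adjusted p = 0.0221). The venous difference of Flt4 was not called without the 5% of cells with most UMIs (-0.09, adjusted p = 0.506), by DESeq2 (adjusted p = 0.0749), without the young WT Cre library (adjusted p = 0.0743) or without the old EC-K4KO library (adjusted p = 0.0725). Nrp1 was likewise highest in capillary cells, with 293, 225, 223 and 183 CPM in capillary cells, 154, 151, 111 and 157 CPM in arterial cells and 128, 142, 115 and 114 CPM in venous cells. Its differences from capillary cells were -0.67 ± 0.10 in arterial cells (adjusted p = 0.000139) and -0.86 ± 0.10 in venous cells (adjusted p = 1.6e-05). The capillary values of Nrp1 lay above both other segments in every library.

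Tek and Tie1 differed little between segments. Tek stood at 421, 395, 302 and 314 CPM in arterial cells, 322, 338, 245 and 255 CPM in capillary cells and 358, 387, 288 and 275 CPM in venous cells, so that arterial cells were above capillary cells in 4 of 4 libraries by 0.34 ± 0.049 (log2, adjusted p = 7.7e-05). Tie1 did not differ between arterial and capillary cells beyond its spread (0.03 ± 0.056, adjusted p = 0.744) and was 0.17 ± 0.054 higher in venous than in capillary cells (adjusted p = 0.0353). Without the 5% of cells with most UMIs, or without the young EC-K4KO or the old WT Cre library, neither Tek nor Tie1 was called between venous and capillary cells, with adjusted p of 0.0536, 0.0532 and 0.0781 for Tek and 0.34, 0.108 and 0.148 for Tie1. Tie1 was not called without the old EC-K4KO library (adjusted p = 0.0848) or with no filter on low counts (adjusted p = 0.0727) either. Angpt2, the antagonist of Tek, varied most after Vegfc. It stood at 42.0, 25.7, 34.5 and 43.5 CPM in capillary cells, 6.59, 6.58, 19.8 and 18.5 CPM in arterial cells and 3.39, 2.53, 4.06 and 3.35 CPM in venous cells. The capillary cells of every library lay above the arterial and venous cells. The differences from capillary cells were -1.59 ± 0.20 in arterial (adjusted p = 1.84e-05) and -3.40 ± 0.24 in venous cells (adjusted p = 6.97e-08). Mcph1, which overlaps Angpt2 on the other strand, stood at 3.02 to 7.50 CPM in the 3 segments, with overlapping ranges, and venous Angpt2 lay below venous Mcph1 in 3 of 4 libraries.

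**Figure D2:**
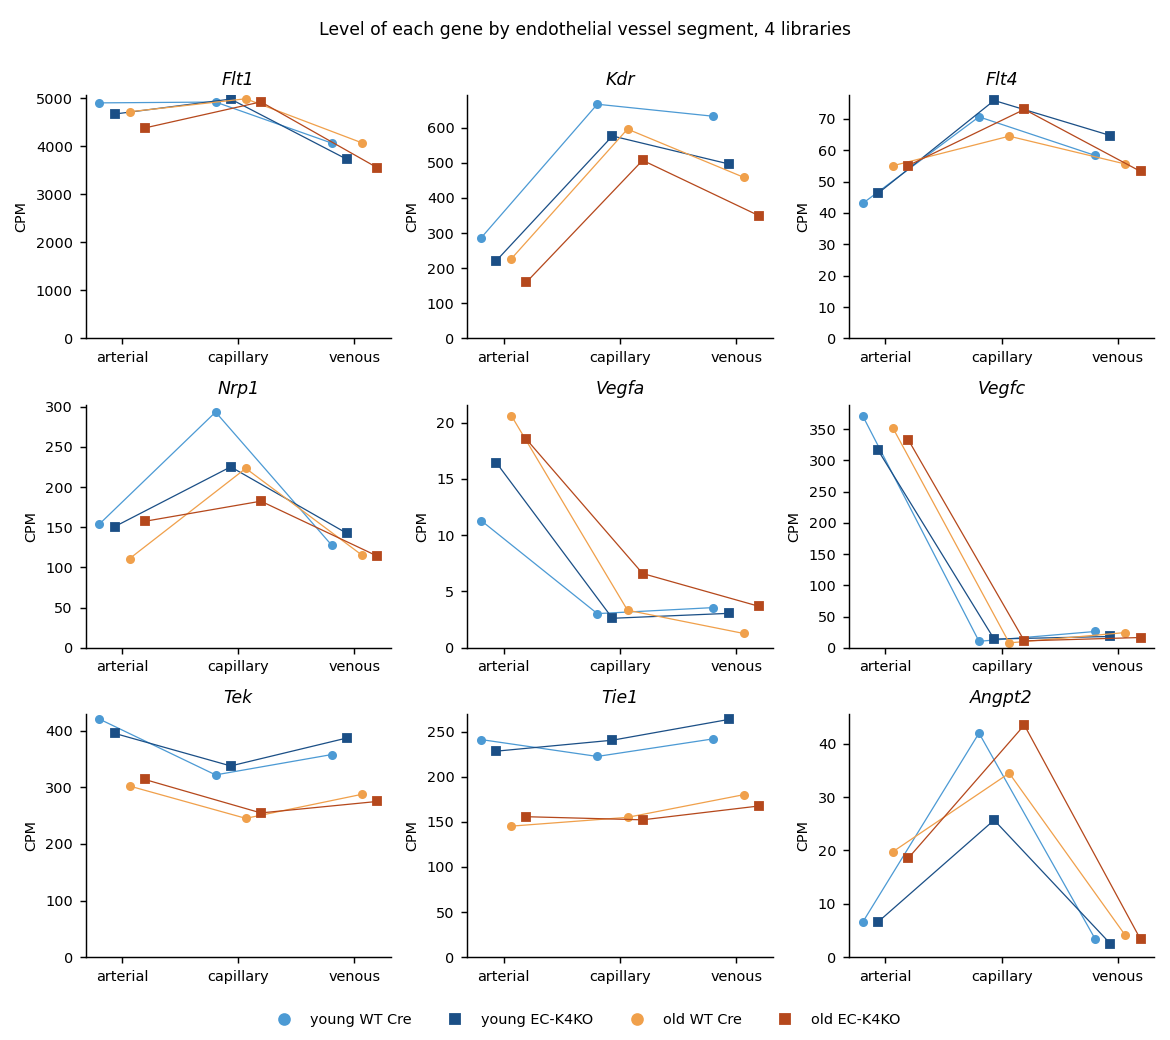
Level of each of the 9 genes (CPM, linear axes from 0) in arterial, capillary and venous endothelial cells, 1 point per library, with a line joining the 3 segments of a library. Vegfc lies at 317 to 371 CPM in arterial cells and at most at 26.1 CPM elsewhere, Kdr is lowest in arterial cells, and Angpt2 is highest in capillary cells and lowest in venous cells.

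Promoter sequence is shown for Kdr, Vegfc and Vegfa, the genes with the largest differences between arterial and capillary cells apart from Angpt2, which had no entry in the promoter table, because Klf4, the gene targeted in these mice, belongs to a family of factors that bind CACCC boxes. Each run gives the 250 bases before the start of a RefSeq transcript in GRCm38, 5′ to 3′ on the gene's strand, at chr5:75978456-75978705 (Kdr, minus strand), chr8:54077282-54077531 (Vegfc, plus) and chr17:46032378-46032627 (Vegfa, minus). Capitals mark the letters CACCC, or GGGTG where the box lies on the opposite strand.
Kdr: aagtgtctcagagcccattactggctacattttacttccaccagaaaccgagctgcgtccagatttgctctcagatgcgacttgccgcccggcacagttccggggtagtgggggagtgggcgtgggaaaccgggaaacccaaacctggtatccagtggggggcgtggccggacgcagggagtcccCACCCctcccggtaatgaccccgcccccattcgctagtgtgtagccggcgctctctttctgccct
Vegfc: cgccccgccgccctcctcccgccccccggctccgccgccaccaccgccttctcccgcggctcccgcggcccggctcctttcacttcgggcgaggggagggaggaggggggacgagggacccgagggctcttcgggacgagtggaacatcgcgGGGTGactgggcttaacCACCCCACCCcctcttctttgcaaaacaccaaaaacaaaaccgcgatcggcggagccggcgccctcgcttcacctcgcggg
Vegfa: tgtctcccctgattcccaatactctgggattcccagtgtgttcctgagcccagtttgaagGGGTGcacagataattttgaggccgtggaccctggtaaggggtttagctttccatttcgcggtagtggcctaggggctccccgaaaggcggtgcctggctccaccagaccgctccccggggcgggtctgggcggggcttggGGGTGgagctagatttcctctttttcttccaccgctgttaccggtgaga
The windows hold 1, 3 and 2 such matches in this order, and their GC content is 61.6, 71.6 and 59.2% against a median of 52.4% over all promoters. At least 1 match was present in 9 of the 9 windows found for 8 of the genes, and in 52.0% of 32851 mouse promoter windows of the same length. The letters ACGTG or CACGT, the core of the hypoxia response element, were present in 1 of the 9 windows, an internal one of Vegfa (16.6% of all promoters), GGGCGG or CCGCCC in 7 (32.7%), and TGTTTAC or GTAAACA (3.17%) and ACCGGAAG or CTTCCGGT (1.72%) in 0. These matches are a description of the letters and not of binding.

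Other genes of both systems showed segment patterns as well. Of 4 other ligands tested, 3 differed between arterial and capillary cells, and Angpt1, the agonist of Tek, was 3.51 ± 0.395 higher in arterial cells (log2, adjusted p = 5.78e-06), although its level over all endothelial cells was only 0.826 to 2.59 CPM. Of 14 other receptors and modifiers, 9 differed, 6 higher and 3 lower. Nrp2, a co-receptor of Vegfc, was 3.24 lower in arterial than in capillary cells on the log2 scale (-3.24 ± 0.15, adjusted p = 5.21e-10) and 2.53 ± 0.0782 higher in venous cells (adjusted p = 2.29e-11), and Sema3f, a semaphorin that binds Nrp2, was 3.79 ± 0.179 higher in arterial cells (adjusted p = 6.57e-10). Mmp14, a membrane-bound metalloproteinase, was 3.05 ± 0.517 higher in arterial cells (adjusted p = 0.000288), from 7 to 46 UMIs per library over all endothelial cells. Markers of mural cells were also higher in arterial than in capillary cells of every library. The 6 smooth muscle markers summed to 153, 338, 119 and 62.2 CPM in arterial against 53.8, 118, 24.8 and 27.9 CPM in capillary cells, and the 5 pericyte markers to 144, 165, 105 and 91.3 CPM against 29.4, 43.2, 22.2 and 8.31 CPM. Their part in the changes of Angpt1, Mmp14 and Vegfa was not tested. Of 12 immediate early and stress genes, which respond to cell dissociation, 5 were higher and 0 lower in arterial than in capillary cells. Between venous and capillary cells 1 was higher and 5 lower (all genes 13.8% and 13.1%). Between arterial and venous cells 7 were higher and 2 lower (all genes 20.7% and 19%). The part of dissociation in the segment differences was not tested. Of 20 signalling genes 10 differed between arterial and capillary cells, 5 in each direction. Of 16 hypoxia response genes 10 differed, 2 higher and 8 lower. Between venous and capillary cells 2 of 4 ligands differed (1 higher, 1 lower) and 7 of 14 receptors and modifiers (2 higher, 5 lower). The counts were 7 of 20 signalling genes (5 higher, 2 lower) and 6 of 16 hypoxia genes (3 higher, 3 lower). Of all genes 27% differed there (13.8% higher, 13.1% lower). Over all 12966 genes 34.4% differed between arterial and capillary cells (18.9% higher, 15.5% lower), and the median difference was -0.02 between arterial and capillary and -0.02 between arterial and venous cells.

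Of 16 tested genes that respond to VEGF or mark tip cells, the leading cells of sprouts, 15 differed between arterial and capillary cells (all genes 34.4%), 8 higher and 7 lower with a median of 0.15, and 15 differed between venous and capillary cells (all genes 27%), 3 higher and 12 lower with a median of -1.07. The venous decrease included Esm1 (-7.75 ± 0.91, adjusted p = 1.46e-05), Unc5b (-3.53 ± 0.121, adjusted p = 4.33e-11), Igfbp3 (-3.46 ± 0.292, adjusted p = 5.63e-07) and the Notch ligand Dll4 (-2.24 ± 0.0836, adjusted p = 9.8e-11). Pgf, a ligand of Flt1, was lower in venous cells too (-2.94 ± 0.608, adjusted p = 0.00203). Apelin (Apln) was lower in arterial than in capillary cells (-3.02 ± 0.493, adjusted p = 0.000211), and so was its receptor Aplnr (-3.18 ± 0.886, adjusted p = 0.0118). Between arterial and venous cells the largest differences were those of Sema3f (5.81 ± 0.256), Nrp2 (-5.77 ± 0.126), Esm1 (5.59 ± 1.39), Aplnr (-5.32 ± 0.71), Igfbp3 (4.95 ± 0.271) and Unc5b (4.69 ± 0.117), with adjusted p between 2.43e-13 and 0.00505. Counts over the lists for this contrast, where 39.7% of all genes were called (20.7% higher, 19% lower), were 4 of 4 other ligands (2 in each direction), 12 of 14 receptors and modifiers (9 higher in arterial cells), 10 of 20 signalling genes (2 higher), 14 of 16 VEGF response genes (9 higher) and 12 of 16 hypoxia genes (5 higher).

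Age was compared across both labels, with the old libraries (1 of each label) against the young ones and the label as a covariate. The fit has 1 residual degree of freedom, so a library could be left out only by dropping the label from the model as well. With age alone in the model 1 of the 9 genes passed over the 4 libraries, and 0 passed by edgeR with any 1 library also left out (3 to 5 at an unadjusted p under 0.05). DESeq2 called 2 of the 9, Vegfc and Tie1. Of all genes 6.09% passed with age alone in the model over the 4 libraries and 7.63% by DESeq2. Called were 3 of the 9 genes, against 15.6% of the 15147 genes tested, with 2 of 9 higher in the old libraries (all genes 9.82%) and 1 of 9 lower (all genes 5.74%). The balance depends on the scaling. All genes gave 1488 calls higher and 870 lower with TMM factors, 1183 higher and 3158 lower with total UMIs only, where 2 of the 9 genes were higher and 4 lower, and 790 higher and 215 lower with DESeq2. In CPM the old libraries lay lower as a whole, the median over all genes being -0.17 on the log2 scale for the WT Cre label and -0.14 for EC-K4KO, so changes below are relative to this shift unless given as CPM.

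Tie1 was lower in old mice. Its 2 old values, 159 and 156 CPM, lay below both young values, 230.3 and 244 CPM, and the change was -0.44 ± 0.074 (log2, SE, 4 libraries, adjusted p = 0.0116). It passed the test in each segment taken alone, at -0.45 ± 0.088 in capillary (adjusted p = 0.00184), -0.50 ± 0.092 in arterial (adjusted p = 0.0189) and -0.37 ± 0.11 in venous cells (adjusted p = 0.0159). Its partner Tek was also lower in both old libraries, but did not pass (-0.23 ± 0.071, adjusted p = 0.0728). Kdr (-0.25 ± 0.074, adjusted p = 0.0663) and Nrp1 (-0.27 ± 0.072, adjusted p = 0.0508) missed the threshold too, although neither overlapped between the ages in CPM. Within venous cells Kdr passed (-0.31 ± 0.11, adjusted p = 0.0472). Flt1 (0.10 ± 0.096, adjusted p = 0.503) and Flt4 (0.04 ± 0.066, adjusted p = 0.707) did not differ beyond their spread, and both turned negative when libraries were scaled by total UMIs alone.

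Vegfa and Vegfc were higher in the old libraries. Vegfa changed by 0.77 ± 0.17 (adjusted p = 0.0294), from 122 and 248 UMIs in young to 114 and 87 UMIs in old endothelial cells. It did not pass in capillary (0.92 ± 0.38, adjusted p = 0.122) or arterial cells (0.66 ± 0.23, adjusted p = 0.146) alone, nor in venous cells (-0.28 ± 0.50, adjusted p = 0.761). The 6 astrocyte markers, all present, summed to 107 to 121 CPM in endothelial cells of the 4 libraries, and their median share of the astrocyte level was 0.218, 0.258, 0.157 and 0.13%. Vegfa stood at 0.98, 0.874, 1.37 and 1.34% of its own astrocyte level. The highest single marker share was 5.95, 5.002, 7.72 and 6.39%. The part of astrocyte RNA in the Vegfa change was not tested.

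Vegfc changed by 0.56 ± 0.078 (adjusted p = 0.0061) over all endothelial cells, but not within segments, where it changed by -0.23 ± 0.20 in capillary (adjusted p = 0.515), 0.15 ± 0.091 in arterial (adjusted p = 0.393) and 0.06 ± 0.18 in venous cells (adjusted p = 0.873). Arterial cells, the segment with most Vegfc, made up 11.2, 9.48, 15.6 and 14.0% of endothelial cells, a larger share in both old libraries. The arterial level itself, 371 and 317 CPM in young and 351 and 333 CPM in old libraries, overlapped between the ages. The segment rule uses marker levels, and the 8 capillary markers summed to 6787, 6304, 5012 and 4675 CPM in capillary cells (young WT Cre, young EC-K4KO, then old WT Cre with old EC-K4KO), so a shift between segments and a change of markers cannot be told apart here.

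Of the segments taken alone, Angpt2 was called with age in arterial cells only. Over all endothelial cells it did not pass (0.46 ± 0.22, adjusted p = 0.209), and its direction differed between the labels. In arterial cells it stood at 6.59 and 6.58 CPM in the young and 19.8 and 18.5 CPM in the old libraries, from 28, 38, 70 and 42 UMIs, a change of 1.68 ± 0.24 (adjusted p = 0.00537). Within each label the ratio was 1.57 for WT Cre (95% exact conditional interval 0.93 to 2.27) and 1.49 for EC-K4KO (0.82 to 2.17), on the log2 scale. In capillary cells the same gene changed by 0.37 ± 0.17 and in venous cells by 0.50 ± 0.44, and neither passed (adjusted p = 0.182 and 0.505). Whether the arterial and capillary changes differ was not tested. As for Vegfc, a shift of cells between segments and a change within arterial cells cannot be told apart here. The segment fits for arterial and venous cells were chosen after seeing the data.

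**Figure D3:**
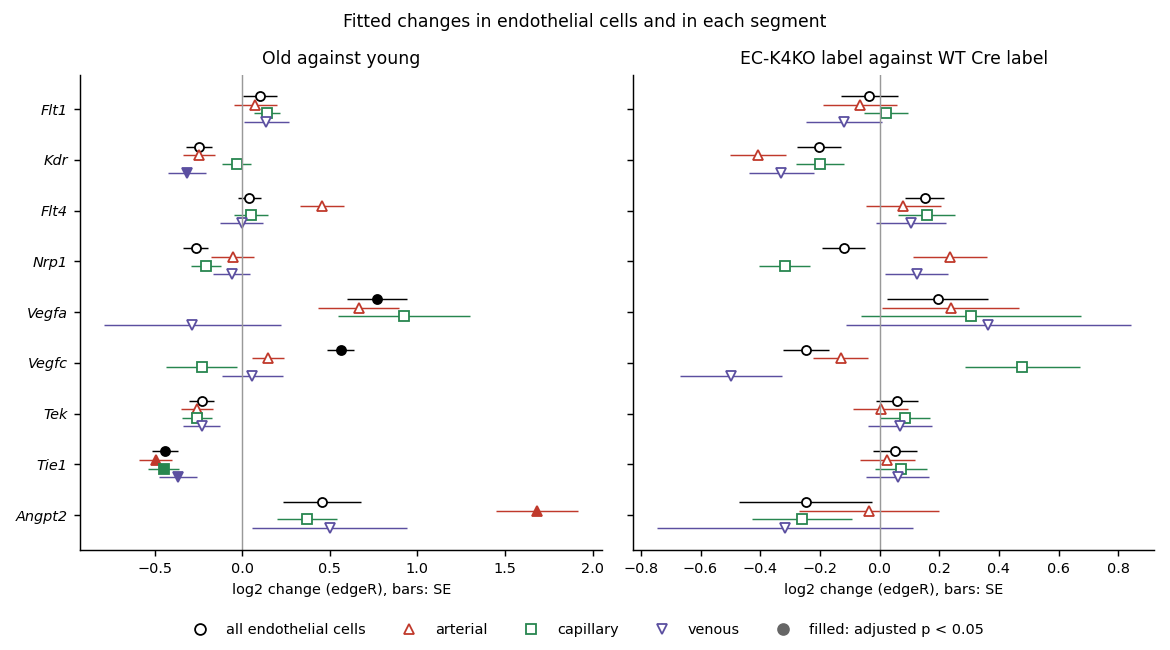
Change of each of the 9 genes in endothelial cells (log2, edgeR, bars are SE) with age and with the genotype label, over all endothelial cells and in each segment, with filled symbols for an adjusted p under 0.05. Over all endothelial cells Tie1 is called lower (-0.44) and Vegfa (0.77) and Vegfc (0.56) are called higher with age, and no gene is called with the genotype label.

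**Figure D4:**
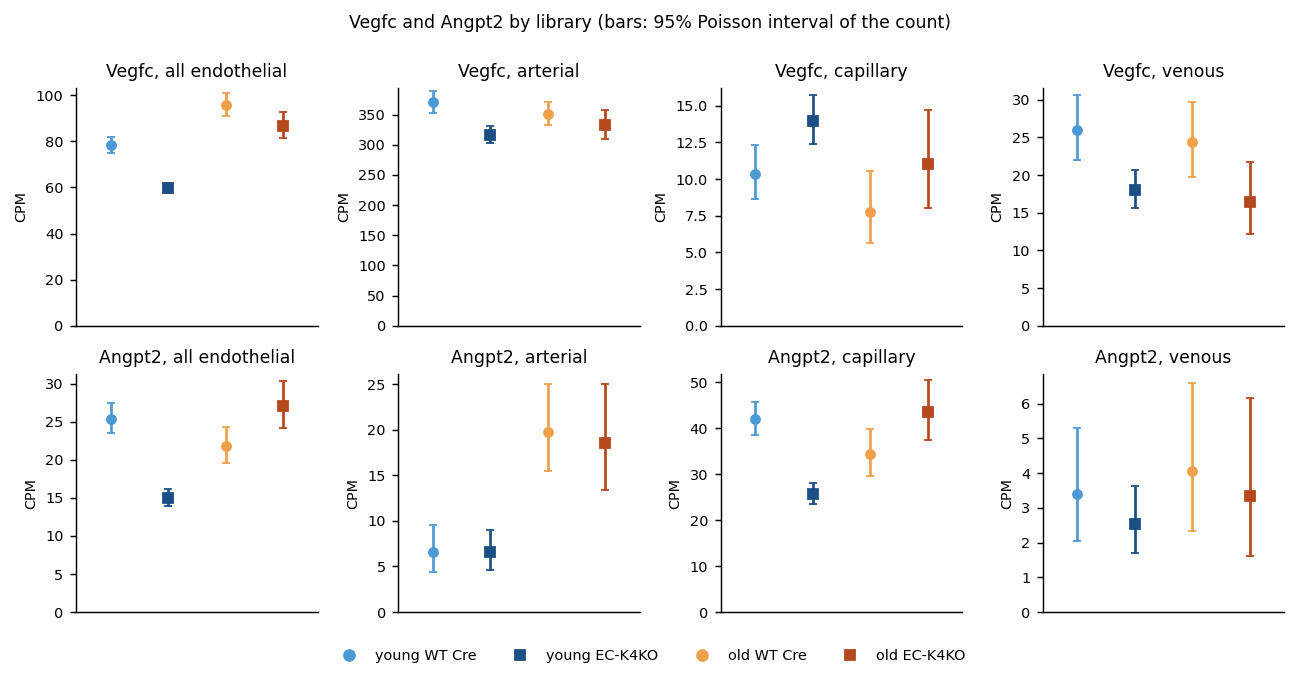
Level of Vegfc and Angpt2 (CPM) by library in all endothelial cells and in each segment, with 95% exact Poisson intervals. Arterial Vegfc overlaps between young and old libraries, while arterial Angpt2 lies at 6.58 to 6.59 CPM in the young and 18.5 to 19.8 CPM in the old libraries.

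Of the remaining pathway genes, those of the hypoxia response moved furthest in one direction with age. The list holds the oxygen-sensing regulators, among them Hif1a, Epas1, Arnt and Vhl, and genes that are induced when oxygen falls. Vegfa is a classic target that is listed here among the 9 genes instead. Of 17 tested, 9 were higher in the old libraries and 0 lower, with a median of 0.45 against -0.01 over all genes, of which 9.82% were called higher and 5.74% lower. With total UMIs only, 8 were higher and 1 lower. Hilpda, a lipid droplet protein, rose from 35.8 and 48.5 CPM to 139 and 155 CPM (1.96 ± 0.0912, adjusted p = 0.00021). Ankrd37 rose from 127 and 92.2 CPM to 328 and 253 CPM (1.56 ± 0.07, adjusted p = 0.00021), and the transcriptional repressor Bhlhe40 from 269 and 308 CPM to 808 and 684 CPM (1.51 ± 0.118, adjusted p = 0.000817). The count was 6 to 9 in the 3 segments taken alone, 7 with age alone in the model, and 3 to 6 when 1 library was left out of that model. Immediate early and stress genes, which respond to cell dissociation, moved with these groups. All 12 were present, and their summed level was 12970.4, 16562, 22450 and 20389 CPM in endothelial cells. Of the 12, 6 were higher in the old libraries and 0 lower (all genes 9.82% and 5.74%), or 5 higher and 2 lower with total UMIs only. With age alone in the model 4 were higher and 0 lower, and likewise by DESeq2 (all genes called 6.09% and 7.63%). Their part in the result was not tested.

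Of 17 tested VEGF response and tip cell genes, 4 were called higher and 2 lower with age (all genes 9.82% and 5.74%), with a median of 0.26. Plaur, the urokinase receptor, rose from 38.3 and 44.5 CPM to 130.2 and 96.2 CPM (1.58 ± 0.149, adjusted p = 0.00147). Aplnr fell from 3.14 and 2.99 CPM to 0.712 and 0.642 CPM (-2.02 ± 0.328, adjusted p = 0.0107), from 83 and 138 to 11 and 7 UMIs, and Apln from 5.19 and 5.78 CPM to 1.36 and 2.57 CPM (-1.38 ± 0.265, adjusted p = 0.0189). With age alone in the model 3 were higher and 1 lower, and with 1 library also left out 1 to 4 were higher and 0 lower, so the falls of Aplnr and Apln were not called there. Of the other lists, 1 of 4 ligands (0 higher, 1 lower), 4 of 14 receptors and modifiers (3 higher, 1 lower) and 1 of 20 signalling genes (1 higher) passed (all genes 15.6%), with medians of 0.20, 0.05 and -0.03. With total UMIs only, a scaling under which 28.7% of all genes passed, 8 of 20 signalling genes did (1 higher, 7 lower), as did 4 receptors and modifiers (1 higher, 3 lower). Of the ligands 0 were called and of the receptors and modifiers 0 or 1 with DESeq2, with age alone in the model and with 1 library also left out.

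**Figure D5:**
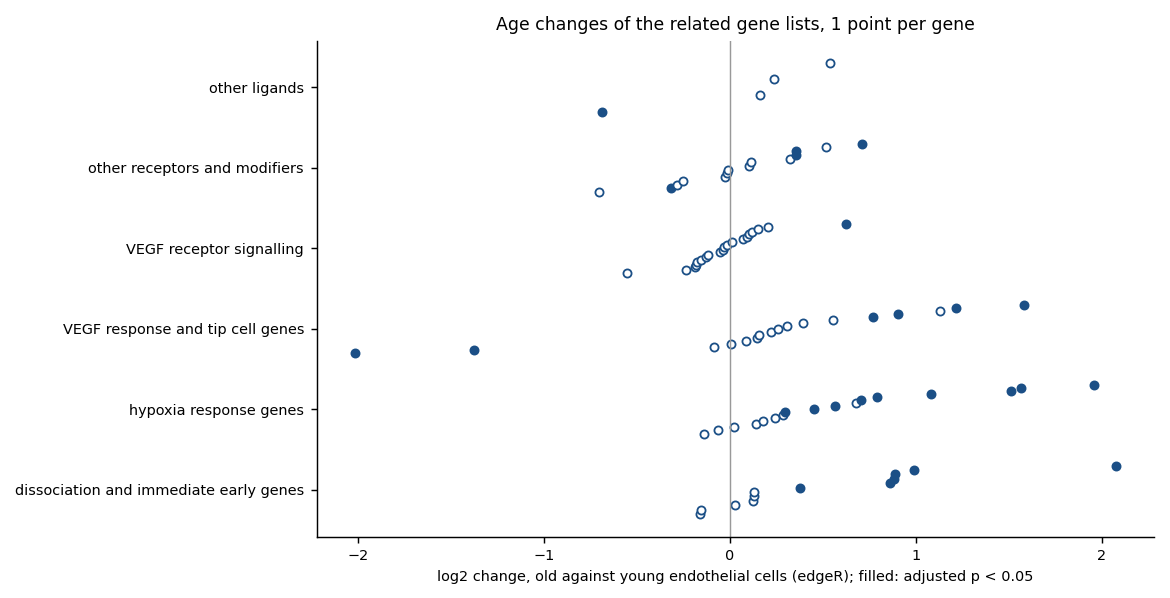
Change with age in endothelial cells (log2, edgeR) of each tested gene of the 5 pathway lists and of the dissociation and immediate early genes, 1 point per gene, filled where called and spread vertically for legibility. In the hypoxia list 9 of 17 genes are called and all 9 are higher in the old libraries (8 higher and 1 lower with total UMIs only), while the list of signalling genes has 1 call.

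With the genotype label, 0 of the 9 genes passed in endothelial cells by edgeR, against 0.759% of all genes (0.409% higher under the EC-K4KO label and 0.35% lower). At an unadjusted p under 0.05 there were 2, Kdr and Vegfc (all genes 1699 of 15147), and DESeq2 called 0 with 0 at an unadjusted p under 0.05. Kdr was lower in the library labelled EC-K4KO at both ages, with a ratio of -0.21 in young (95% exact conditional interval -0.24 to -0.18) and -0.25 in old mice (-0.30 to -0.19) and a fitted change of -0.20 ± 0.074 (adjusted p = 0.379). The same direction was present in capillary, arterial and venous cells, and none of the 3 passed. Vegfc was lower by the fit (-0.25 ± 0.078, adjusted p = 0.296), with ratios of -0.39 in young and -0.14 in old mice, yet in capillary cells alone its change was 0.48 ± 0.19 (adjusted p = 0.323). Of the 5 pathway lists, 0 genes passed in any by edgeR with the settings used throughout or by DESeq2. With the stricter class rule 1 passed in each of the 5 (all genes 2.02%). With no filter on low counts 1 or 2 passed in each (all genes 2.77%). Under the other alternatives 0 to 2 passed in each (all genes 0 to 3.59%). With the settings used throughout, 2 of 4 ligands, 4 of 14 receptors and modifiers, 2 of 20 signalling genes, 5 of 17 VEGF response genes and 2 of 17 hypoxia genes had an unadjusted p under 0.05 by edgeR, as did 1699 of all 15147 genes.

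Among the other classes with at least 50 cells in every library, changes of the 9 genes were tested where counts allowed. Vegfa of astrocytes, the class with most of its RNA, did not differ with age (0.08 ± 0.16, adjusted p = 0.938) or with the label (0.23 ± 0.16, adjusted p = 0.862) beyond its spread. In astrocytes 3 of the 9 genes could be tested and 0 were called with age or label by edgeR, against 0.614% and 0.0312% of all genes, and 1 and 0 had an unadjusted p under 0.05. Smooth muscle cells gave 0 of 9 with age and with label (all genes 1.24% and 0.25%), with 4 and 0 at an unadjusted p under 0.05. Angpt2 of these cells did not pass with age (-0.30 ± 0.22, adjusted p = 0.579). Pericytes gave 0 of 4 (all genes 0.734% and 0%), with 0 and 2 at an unadjusted p under 0.05, one of these being Angpt2, which was higher by label (0.86 ± 0.35, adjusted p = 1). Oligodendrocytes gave 0 of 3 (all genes 1.93% and 0.418%), with 1 and 1 at an unadjusted p under 0.05.

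In microglia 3 of 5 tested genes passed with age (all genes 28.6%) and 0 of 5 with the label (all genes 1.51%, 0 at an unadjusted p under 0.05). Flt1 was lower in the old libraries (-0.74 ± 0.16, adjusted p = 2.76e-05) and so was Tek (-1.99 ± 0.50, adjusted p = 0.000517), both at background levels of at most 51.5 and 6.47 CPM. The median share of the 8 endothelial markers in microglia fell in the same direction, from 1.41 and 1.43% to 0.381 and 0.305%. Vegfa was called higher with age (1.16 ± 0.22, adjusted p = 1.39e-06), but its values of 23.0, 5.66, 15.6 and 30.2 CPM, from 47, 21, 113 and 117 UMIs, overlapped between the ages. The old WT Cre library was lower than the young one and the old EC-K4KO library higher.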

How the data were processed

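Single-cell RNA sequencing of brain cells in 4 mouse libraries was analysed. The deposited values are raw UMI counts of each gene in each barcode. Per the file headers, these counts came from Cell Ranger 6.0.2 as run by the authors. The submitters' processing notes name mm10/GRCm38 and Seurat. The droplet kit and the use of strand are not given in the sources used here. The barcodes had been limited before deposit to called cells, and the study gives fewer cells than the files hold without stating the filter.

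Barcodes were kept with at least 500 genes, 1000 UMIs and at most 10% mitochondrial UMIs. Each library held 4671, 6940, 5810 and 4293 kept cells, and 46794601, 88812581, 51945411 and 30655769 UMIs over all barcodes, in the order young WT Cre, young EC-K4KO, old WT Cre, old EC-K4KO. Each cell was scored on fixed markers of 19 classes (4 to 8 markers each) and given the highest class if its mean log score was at least 0.8 and exceeded the second class by 0.75. This left 1398 cells unassigned, and 376 lay within 0.1 of a class cut. Endothelial cells were called arterial or venous at a score of 0.9 with a margin of 0.3 and capillary at 0.6, and 911 lay near a segment cut. The names are rebuilt and can differ from those of the study. The cut-offs were set after the marker scores had been seen. No doublet caller was run, the margin between classes and removal of the 5% of cells with most UMIs standing in for it.

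UMIs were summed per library and class or segment. Tests were edgeR 4.0.16 quasi-likelihood fits (R 4.3.3) over all genes passing filterByExpr (minimum count 10), with TMM factors and Benjamini-Hochberg adjustment at 0.05, and the SE is the change divided by the root of F. Age and genotype label entered one model (1 residual degree of freedom), and segments were fitted with library as a block (6 residual degrees of freedom). On simulated counts the share of false calls among all calls was above the adjusted threshold in the age fit and, by less, in the segment fit, so calls are less strict than their adjusted p states. The interaction of age and label has no residual degrees of freedom and was not tested. Ratios between single libraries add 0.5 UMIs and carry 95% exact conditional binomial intervals, levels carry exact Poisson intervals, and shares of cells exact Clopper-Pearson intervals. These cover counting error only. A count of 0 allows up to 3 counts. Alternatives were other scaling (RLE, total UMIs), no filter, DESeq2 1.42.0, stricter cell and class rules, cells weighted equally, single segments and each library left out. The arterial and the venous segment alone were added after seeing the data. Gene positions are from GENCODE release 21 of mouse (55094 of 55487 identifiers matched, and 9 of 9 genes) and promoters from RefSeq, both in GRCm38.

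All 9 genes are named. Of 5 pathway lists (other ligands, other receptors and modifiers, VEGF receptor signalling, VEGF response and tip cell genes, hypoxia response genes), counts are given for each and the called genes of largest absolute change are named, up to 6 per contrast. A list of 12 dissociation and immediate early genes is given as a sum and a count. Klf4 checks the labels, and the gene nearest in pattern is given for each of the 9 except Vegfc, for which it is not reported here. The 9 genes and the lists were chosen with earlier results of these data known.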

Additional observations from a re-analysis of the deposited data

Results flagged for a closer look

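Angpt2 and Vegfa moved in opposite directions between libraries of the same contrast. Each value is a log2 ratio of CPM between 2 single libraries with the 95% exact conditional interval, and the difference between the 2 ratios of a contrast was not tested, since each group holds 1 library.

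Angpt2 in endothelial cells was lower in the library labelled EC-K4KO than in WT Cre among young mice (-0.76, interval -0.91 to -0.60) and higher among old mice (0.32, 0.08 to 0.54). Seen by age, it was lower in the old library with the WT Cre label (-0.22, -0.41 to -0.03) and higher with the EC-K4KO label (0.85, 0.65 to 1.05). Capillary cells alone gave -0.71 and 0.34 for the label in young and old mice, and -0.28 and 0.76 for age with the WT Cre and EC-K4KO labels. Smooth muscle cells, sorted apart by other markers, gave -0.34 in young and 0.64 in old mice for the label. Pericytes gave 1.12 (0.42 to 1.90) in young and 0.31 (-1.09 to 1.57) in old mice, from 9 to 58 UMIs per library. Arterial cells differed in this, with ratios for age of 1.57 and 1.49. The young EC-K4KO library, which holds the lowest endothelial Angpt2, is also the deepest at a median of 10170 UMIs per endothelial cell.

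Vegfa in microglia gave -2.00 (-2.84 to -1.25) for the label in young mice and 0.95 (0.57 to 1.34) in old mice, and -0.56 (-1.06 to -0.03) and 2.39 (1.74 to 3.16) for age with the WT Cre and EC-K4KO labels. The value of the young EC-K4KO library rests on 21 UMIs. After thinning to 1000 UMIs the share of microglia with a Vegfa UMI was 1.20, 1.03, 1.26 and 1.97% in the order of the report, with overlapping intervals.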

How the results depend on the processing

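No paired analysis was possible because each combination of age and genotype label has 1 library, all with the same replicate number, so that no block by that number can be fitted. The library block of the segment fits and the label term of the age fit are part of the main models. The 2358 genes called with age became 4341 with total UMIs only, 3855 with no filter on low counts, 661 in the arterial segment only, 923 with age alone in the model, 1005 with DESeq2 and, with age alone in the model and 1 library also left out, 99, 376, 415 and 183 without young WT Cre, young EC-K4KO, the old WT Cre library and the old EC-K4KO library in turn (99 to 415). The 115 called with the genotype label became 256 with total UMIs only, 766 with no filter, 299 with the stricter class rule, 251 without the 5% of cells with most UMIs, 180 with cells weighted equally, 293, 56 and 311 in the capillary, arterial and venous segments, 525 without the venous segment and 0 by edgeR with the label alone in the model (338 at an unadjusted p under 0.05, and 127 by DESeq2 with age in the model). The segment contrasts kept 3440 to 3975 calls (arterial against capillary), 2487 to 3003 (venous against capillary) and 3873 to 4661 (arterial against venous) with 1 library left out.

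Of the 9 genes, 6 were called with age with total UMIs only (2 higher, 4 lower, all genes 28.7%). Without the venous segment 6 were called (3 higher, 3 lower, all genes 21%). With no filter on low counts 7 were called (3 higher, 4 lower, all genes 14%). The age call of Vegfa was lost with DESeq2 and with age alone in the model, that of Vegfc with age alone in the model, and all 3 with age alone in the model and any 1 library also left out, which changes the samples and the model together. With age, the sign turned for Flt1 (-0.046) and Flt4 (-0.11) with total UMIs only, a scaling that moves the median of all genes to -0.16. It also turned for Flt4 (-0.0038) and Vegfa (-0.28) in venous cells, for Vegfc in capillary cells (-0.23), and for Flt4 with 1 library left out and age alone in the model (-0.039 without young WT Cre and -0.035 without the old EC-K4KO library, in a range of -0.039 to 0.12). With the label it turned for Flt1 (0.021) and Vegfc (0.48) in capillary cells and for Nrp1 in arterial (0.24) and venous cells (0.12). Tie1 between arterial and capillary cells ranged from -0.0082 to 0.056 with 1 library left out. Of the ratios between single libraries, Flt1 turned with TMM factors to 0.0034 (label, young), 0.14 (age, WT Cre) and 0.064 (age, EC-K4KO), and in capillary cells to 0.018 (label, young) and 0.0198 (age, WT Cre). Vegfc turned in capillary cells to 0.43 and 0.50 (label, young and old) and to -0.40 and -0.33 (age, WT Cre and EC-K4KO). The cause of these turns was not tested. In the segment contrasts 89 of 90 arterial against capillary, 79 of 90 arterial against venous and 78 of 90 venous against capillary values kept direction and call. Low counts limit Vegfa, at 5 to 95 UMIs per library and segment, and Angpt2 in arterial and venous cells. The 9 genes were not ranked by this limit.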
